A study of Rattus norvegicus with 12 samples.

Results

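The Mediator complex was followed here through the livers of rat fetuses whose mothers had been fasted or fed, in total RNA and in the RNA bound to polysomes. Members were the genes of the array's annotation named Med followed by a number, with or without a final l, together with Cdk8, Cdk19 and Ccnc. Of 33 current rat gene symbols that fit this description, 26 had a probe linked to that gene alone, and they are 26 of the 14497 genes so named on the array. Med7, Med9, Med12, Med13l, Med18, Med25 and Med26 had no such probe and were not analysed here. Each of the 26 genes was read by 1 probe, and all 26 were among the 10174 genes kept after a filter on dim probes. Levels are log2 of the deposited intensity plus 1, and a difference of 1 is a doubling. Because probes differ in brightness, levels were compared between arrays for 1 gene at a time and never between genes.

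Mediator is a large assembly that stands between DNA-bound transcription factors and RNA polymerase II at promoters. Its head and middle modules contact the polymerase, its tail module receives most activators, and Med14 runs through the complex as a backbone. A detachable kinase module, made of Cdk8 or its paralog Cdk19, cyclin C, Med12 or Med12l and Med13 or Med13l, can hold the core complex away from the polymerase. In liver, Mediator carries signals from nuclear receptors, through Med1, and from SREBP, the master regulator of lipid synthesis genes, through Med15.

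The fetuses were Sprague Dawley rats at day 19 of gestation. Of the 4 groups of 3 arrays, 1 held liver polysome RNA from fetuses of dams fasted for 48 hr before delivery, a model of restricted growth in the womb, and another the polysome RNA from fetuses of freely fed control dams. The remaining groups held total liver RNA from fasted and from fed dams. The labels give 3 dams per diet and call the samples biological replicates, without naming the dam of an array. No gene was altered and no drug was given. Polysome RNA was extracted with acid phenol and chloroform from pooled polysome preparations, and total RNA with guanidine thiocyanate and a cesium chloride gradient, so the RNA fraction and the way of extraction cannot be told apart. In whole liver, fewer cells of a type and less RNA per cell cannot be told apart either.

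All 12 arrays were much alike. Over the tested genes the correlation between arrays of 1 group lay between 0.9925 and 0.9939 in total RNA. Among the polysome arrays, fasted replicate 2 was the one least like its group (0.9918 and 0.9921 with the others, which correlated at 0.9950 with each other), and so was fed replicate 1 (0.9915 and 0.9883, against 0.9943). For the main results that turn on these arrays, values with and without them are given. The 10 hepatocyte markers all passed the filter, and their summed intensity was 16.65 to 16.66 (log2) in fasted polysome, 16.60 to 16.71 in fed polysome, 16.79 to 16.86 in fasted total and 16.80 to 16.85 in fed total RNA. The 8 macrophage markers summed to 12.34 to 12.37 in fasted polysome against 12.07 to 12.22 in fed polysome RNA, and to 12.81 to 12.99 in fasted total against 12.66 to 12.73 in fed total RNA. Endothelial markers, 7 of 8 with a probe past the filter, summed to 11.88 to 12.01 in fasted polysome against 11.79 to 11.86 in fed polysome RNA, and to 12.56 to 12.60 in fasted total against 12.35 to 12.44 in fed total RNA. Both lists were thus lower in polysome than in total RNA and higher in the fasted than in the fed groups. Hepatocyte markers were also lower in polysome than in total RNA without overlap. Averaged over diets, 8 of the 10 were lower and 0 higher (limma, adjusted p under 0.05), where 24.2% of all tested genes were lower. Megakaryocyte markers, 3 of 6 with a probe past the filter, summed to 11.13 to 11.44 in fasted polysome against 11.61 to 11.69 in fed polysome RNA, lower in fasted dams without overlap, and to 11.24 to 11.64 in fasted total against 11.24 to 11.61 in fed total RNA. The sum for neutrophil and monocyte precursor markers took all 8, each with a probe and 7 past the filter. It overlapped between all groups, at 13.14 to 13.38 in fasted polysome against 13.12 to 13.39 in fed polysome RNA. In total RNA it was 13.26 to 13.34 in fasted against 13.08 to 13.53 in fed dams. The part of these markers in the results on Mediator genes was not tested. Erythroid markers, 8 of 10 with a probe, lay between 15.76 and 15.83 in all 12 arrays. The sum for exocrine pancreas markers took all 9, each with a probe and 6 past the filter. It reached 11.85 in 1 fed total array and lay between 9.51 and 10.14 in the polysome arrays. In the fasted total arrays it lay between 9.77 and 9.79.

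The promoters of a few members are shown because these genes carry the results that follow: Med21 had the largest difference between fractions, Med28 and Med6 were higher in polysome than in total RNA past the threshold in fasted dams alone, and Cdk19, unlike its paralog Cdk8, showed no difference that passed. Each is the 250 bases before the RefSeq start of the gene, 5′ to 3′ on the gene's strand, in the rat build GRCr8. Capitals mark 4 motifs on either strand. The GC box was searched as GGGCGG. The CCAAT box was searched by the letters of its name. The core bound by ETS factors was searched as CCGGAAG, and the TATA box as the run TATAAA. Motifs that overlap or touch join into a single run of capitals. Med21 lies at chr4:181291024-181291273 on the plus strand, Med28 at chr14:69816116-69816365 on the minus strand, Med6 at chr6:107015131-107015380 on the minus strand and Cdk19 at chr20:45324661-45324910 on the plus strand.
Med21: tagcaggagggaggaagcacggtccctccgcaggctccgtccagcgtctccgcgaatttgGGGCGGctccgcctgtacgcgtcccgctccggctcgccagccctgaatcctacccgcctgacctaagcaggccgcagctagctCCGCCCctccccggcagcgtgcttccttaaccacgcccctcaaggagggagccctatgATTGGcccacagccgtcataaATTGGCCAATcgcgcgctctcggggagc
Med28: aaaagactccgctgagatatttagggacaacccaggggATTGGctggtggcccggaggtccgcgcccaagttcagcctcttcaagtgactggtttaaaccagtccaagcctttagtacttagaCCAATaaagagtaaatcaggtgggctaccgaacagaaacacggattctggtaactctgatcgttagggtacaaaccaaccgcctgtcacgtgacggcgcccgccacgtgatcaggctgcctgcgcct
Med6: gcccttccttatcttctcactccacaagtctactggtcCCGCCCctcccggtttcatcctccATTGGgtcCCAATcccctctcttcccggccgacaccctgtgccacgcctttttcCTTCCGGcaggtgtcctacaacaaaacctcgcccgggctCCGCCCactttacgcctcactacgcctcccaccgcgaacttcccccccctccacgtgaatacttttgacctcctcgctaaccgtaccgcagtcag
Cdk19: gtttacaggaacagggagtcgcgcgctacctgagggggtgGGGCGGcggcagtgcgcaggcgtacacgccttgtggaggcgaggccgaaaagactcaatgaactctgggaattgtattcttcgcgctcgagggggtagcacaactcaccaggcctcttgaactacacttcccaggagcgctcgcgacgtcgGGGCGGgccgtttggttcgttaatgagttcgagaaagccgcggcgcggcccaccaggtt
The table of promoters held 22 of the 26 members. The GC box was found in 14 of the 22 (63.6%), against 59% of 8441 tested genes and 30.5% of all 33469 promoters in the table. The CCAAT box was found in 10 (45.5%), against 36.7% of tested genes and 34% of all promoters. The ETS core was found in 6 (27.3%), against 15.2% of tested genes and 7.27% of all promoters, and 5 of the 6 were among the 13 small subunits with a promoter, against 1 of 9 large ones. The TATA box was found in 1 member, Med16 (4.55%), against 6.88% of tested genes. A NRF1 core and a YY1 core, each of 10 letters and searched on both strands, were found in none of the 22, against 1.73% and 0.699% of tested genes. A match describes the letters of this window and is neither a shown binding site nor a cause.

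**Figure D1:**
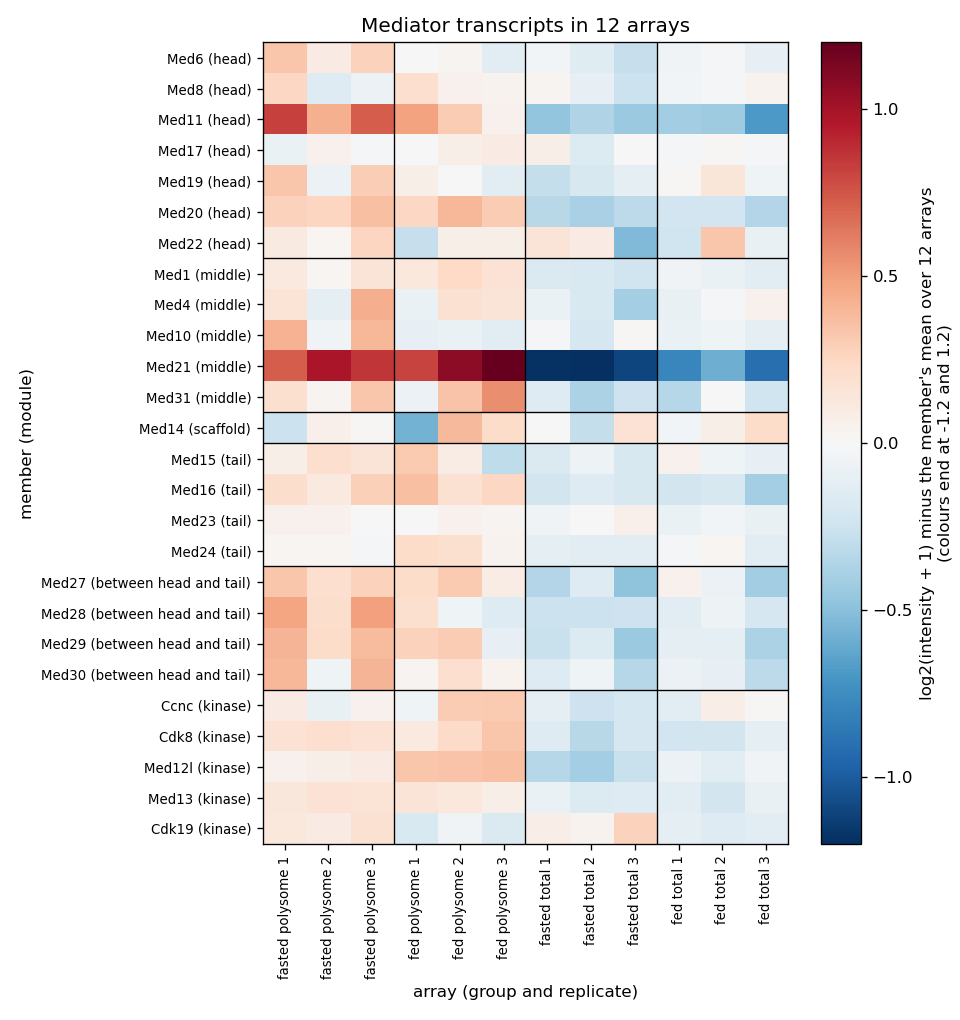
Level of each of the 26 Mediator genes in each of the 12 arrays, as the difference from that gene's own mean (log2), with genes in rows by module and arrays in columns by group. Med21 and Med11 have the widest separation between polysome and total arrays, 1.97 and 0.94 averaged over both diets.

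The comparison of polysome with total RNA asks which messages make up a larger share of the RNA on ribosomes than of all RNA in the tissue. Averaged over both diets, 17 of the 26 Mediator genes were higher in polysome RNA and 0 were lower (limma, adjusted p under 0.05). At the same threshold 57.2% of all tested genes differed, 33.0% higher and 24.2% lower. The median difference of the 26 was 0.26 on the log2 scale, against 0.05 over all tested genes. By module, 3 of 7 head genes passed, 4 of 5 middle genes, 2 of 4 tail genes, all 4 genes that sit between head and tail, and 4 of 5 kinase module genes, all higher in polysome RNA, while the scaffold gene Med14 did not pass.

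**Figure D2:**
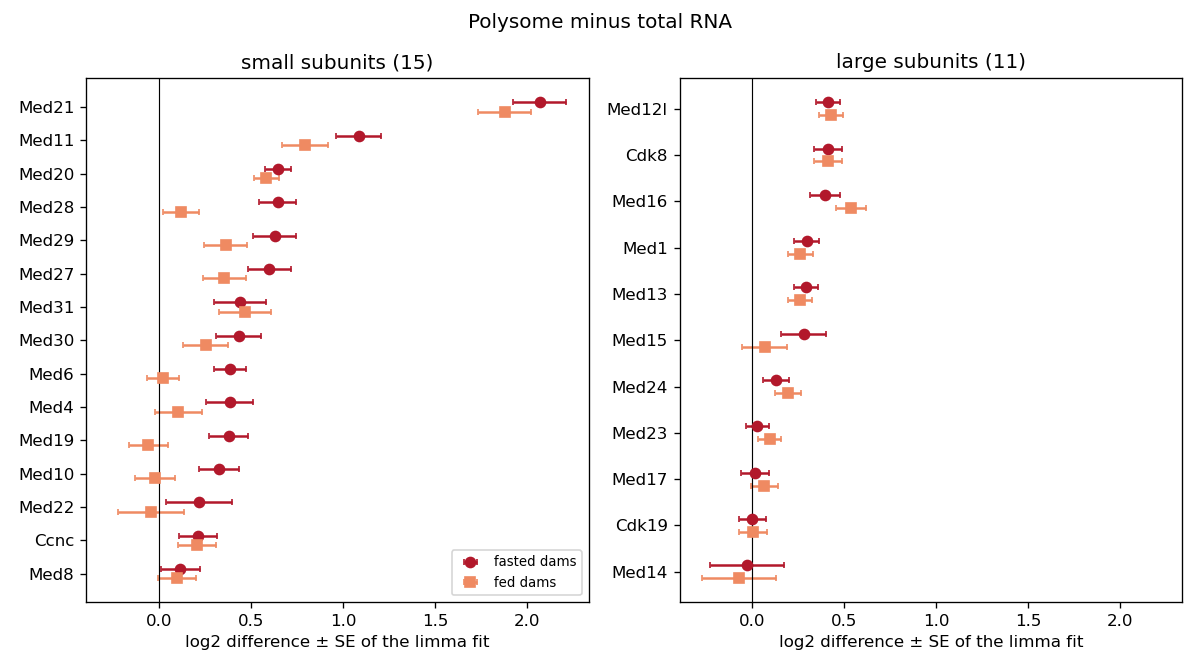
Polysome minus total RNA (log2 difference ± SE of the limma fit, 3 arrays per group) for each Mediator gene, in fasted dams and in fed dams, with small and large subunits in separate panels. Med21 lies far to the right of the others, at 2.07 in fasted and 1.88 in fed dams, and Cdk19 lies at 0.

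Med21 encodes a small subunit of the middle module that pairs with Med7 at the hinge of the complex. Its level was 8.73, 8.98 and 8.87 in the fasted polysome arrays and 8.82, 9.08 and 9.48 in the fed polysome arrays, against 6.82, 6.65 and 6.91 in the fasted total and 7.22, 7.42 and 7.10 in the fed total arrays. Every polysome array was above every total array. The difference was 1.97 ± 0.10 averaged over diets, where ± gives the SE of the fit, or a 3.93-fold higher level in polysome RNA (limma, adjusted p = 1.41e-08). It was 2.07 ± 0.14 in fasted and 1.88 ± 0.14 in fed dams, and it was the largest difference among the 26 members in each.

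The other middle genes differed less between fractions. Med31, a small and highly conserved subunit, had 8.26, 8.10 and 8.40 in the fasted polysome arrays and 8.0, 8.41 and 8.62 in the fed polysome arrays, against 7.91, 7.69 and 7.83 in the fasted total and 7.72, 8.07 and 7.83 in the fed total arrays. It was 0.46 ± 0.10 higher in polysome RNA averaged over diets (limma, adjusted p = 0.00161). Its polysome arrays were all above the total arrays in fasted dams and overlapped with them in fed dams. Med4, another small middle subunit, was measured at 8.15, 7.86 and 8.41 in the fasted polysome arrays and 7.90, 8.16 and 8.13 in the fed polysome arrays, against 7.90, 7.79 and 7.57 in the fasted total and 7.89, 7.95 and 8.02 in the fed total arrays. Its difference passed in fasted dams at 0.39 ± 0.13 (limma, adjusted p = 0.0263) and was 0.11 ± 0.13 in fed dams, where it did not pass (adjusted p = 0.545).

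Med10, also of the middle module, had 10.03, 9.56 and 10.01 in the fasted polysome arrays and 9.51, 9.53 and 9.49 in the fed polysome arrays, against 9.58, 9.41 and 9.62 in the fasted total and 9.53, 9.56 and 9.50 in the fed total arrays. Fasted polysome replicates 1 and 3 stood above the other 10 arrays. The difference between fractions was 0.33 ± 0.11 in fasted dams (limma, adjusted p = 0.0252) and -0.02 ± 0.11 in fed dams (adjusted p = 0.897). Med1, the docking subunit for nuclear receptors and a large member of the middle module, had 11.39, 11.30 and 11.43 in the fasted polysome arrays and 11.41, 11.51 and 11.44 in the fed polysome arrays, against 11.10, 11.09 and 11.04 in the fasted total and 11.24, 11.20 and 11.15 in the fed total arrays. Its difference was 0.28 ± 0.047 averaged over diets (limma, adjusted p = 2.13e-04), close to the same in fasted (0.30 ± 0.067) and fed (0.26 ± 0.067) dams.

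In the head module Med11 and Med20 had the clearest differences. Med11, a small subunit that pairs with Med22, had 11.22, 10.83 and 11.13 in the fasted polysome arrays and 10.89, 10.71 and 10.45 in the fed polysome arrays, against 9.93, 10.04 and 9.96 in the fasted total and 9.98, 9.97 and 9.71 in the fed total arrays. The polysome and total arrays did not overlap, and the difference was 0.94 ± 0.087, or 1.92-fold higher in polysome RNA (limma, adjusted p = 1.17e-06). Med20, the partner of Med18 in the head, had 8.67, 8.65 and 8.76 in the fasted polysome arrays and 8.64, 8.79 and 8.70 in the fed polysome arrays, against 8.06, 8.0 and 8.08 in the fasted total and 8.17, 8.16 and 8.04 in the fed total arrays. It was 0.62 ± 0.050 higher in polysome RNA (limma, adjusted p = 3.59e-07), and its polysome and total arrays did not overlap in either diet.

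Med6, a head subunit at the contact with the middle module, gave 9.65, 9.41 and 9.59 in the fasted polysome arrays and 9.32, 9.35 and 9.19 in the fed polysome arrays, against 9.28, 9.17 and 9.04 in the fasted total and 9.27, 9.30 and 9.22 in the fed total arrays. It was higher in polysome RNA in fasted dams by 0.39 ± 0.086 (limma, adjusted p = 0.00265), whereas in fed dams the difference was 0.02 ± 0.086 (adjusted p = 0.858). Med19, which bridges head and middle, gave 8.47, 8.07 and 8.43 in the fasted polysome arrays and 8.21, 8.14 and 8.0 in the fed polysome arrays, against 7.85, 7.95 and 8.03 in the fasted total and 8.15, 8.28 and 8.09 in the fed total arrays. Its pattern was like that of Med6, with 0.38 ± 0.11 in fasted dams (limma, adjusted p = 0.0108) and -0.06 ± 0.11 in fed dams (adjusted p = 0.705).

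Med17, the large central subunit of the head, did not pass in either diet. Its level was 8.23, 8.36 and 8.28 in the fasted polysome arrays and 8.31, 8.38 and 8.41 in the fed polysome arrays, against 8.38, 8.14 and 8.31 in the fasted total and 8.29, 8.33 and 8.28 in the fed total arrays. The difference between fractions was 0.04 ± 0.053, with a 95% interval of -0.07 to 0.16. Med8 and Med22, the remaining head genes, did not pass either, at 0.11 ± 0.074 and 0.09 ± 0.13.

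The 4 subunits between head and tail were all higher in polysome RNA averaged over diets. Med27 had 9.13, 9.0 and 9.09 in the fasted polysome arrays and 9.02, 9.12 and 8.89 in the fed polysome arrays, against 8.45, 8.65 and 8.32 in the fasted total and 8.86, 8.73 and 8.39 in the fed total arrays, a difference of 0.48 ± 0.083 (limma, adjusted p = 2.58e-04). Med29 had 9.99, 9.80 and 9.96 in the fasted polysome arrays and 9.86, 9.89 and 9.48 in the fed polysome arrays, against 9.32, 9.42 and 9.14 in the fasted total and 9.47, 9.47 and 9.20 in the fed total arrays, a difference of 0.50 ± 0.084 (limma, adjusted p = 2.04e-04). Both passed in each diet, but in fed dams neither passed without fed polysome replicate 1 (limma, adjusted p = 0.0547 for Med27 and 0.0806 for Med29). Med30 had 8.82, 8.37 and 8.83 in the fasted polysome arrays and 8.45, 8.62 and 8.46 in the fed polysome arrays, against 8.26, 8.37 and 8.08 in the fasted total and 8.35, 8.32 and 8.11 in the fed total arrays, and its difference passed in fasted dams (0.44 ± 0.12, limma, adjusted p = 0.0117) but not in fed dams (0.25 ± 0.12, adjusted p = 0.115).

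Med28 showed the widest gap between the diets in this group. Its level was 11.93, 11.66 and 11.95 in the fasted polysome arrays and 11.64, 11.40 and 11.30 in the fed polysome arrays, against 11.19, 11.20 and 11.21 in the fasted total and 11.33, 11.40 and 11.25 in the fed total arrays. The fasted polysome arrays were above all other arrays. The polysome minus total difference was 0.65 ± 0.099 in fasted dams (limma, adjusted p = 1.85e-04) and 0.12 ± 0.099 in fed dams (adjusted p = 0.345).

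The tail genes are large and differed modestly. Med16 had 10.38, 10.28 and 10.45 in the fasted polysome arrays and 10.52, 10.35 and 10.41 in the fed polysome arrays, against 9.94, 10.01 and 9.97 in the fasted total and 9.94, 9.98 and 9.76 in the fed total arrays, and it was 0.47 ± 0.057 higher in polysome RNA (limma, adjusted p = 1.22e-05). Med24, which holds Med16 and Med23 in the tail, had 9.88, 9.88 and 9.84 in the fasted polysome arrays and 10.08, 10.05 and 9.90 in the fed polysome arrays, against 9.75, 9.73 and 9.73 in the fasted total and 9.85, 9.88 and 9.73 in the fed total arrays. Its difference passed in fed dams (0.19 ± 0.070, limma, adjusted p = 0.0408) and not in fasted dams (0.13 ± 0.070, adjusted p = 0.152), and it was the only member that passed in fed dams alone.

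Neither activator-binding tail gene passed. Med15, which binds SREBP, had 10.50, 10.63 and 10.59 in the fasted polysome arrays and 10.74, 10.52 and 10.13 in the fed polysome arrays, against 10.26, 10.37 and 10.24 in the fasted total and 10.48, 10.38 and 10.33 in the fed total arrays. Its difference was 0.18 ± 0.086 averaged over diets (limma, adjusted p = 0.0994) and 0.28 ± 0.12 in fasted dams (adjusted p = 0.0792). In fasted dams it passed under some other settings of the processing, among them arrays centred on their median. Med23, which binds the growth factor-responsive activator Elk1, had 10.19, 10.19 and 10.13 in the fasted polysome arrays and 10.13, 10.19 and 10.17 in the fed polysome arrays, against 10.09, 10.13 and 10.20 in the fasted total and 10.05, 10.10 and 10.04 in the fed total arrays, a difference of 0.06 ± 0.044 with a 95% interval of -0.03 to 0.16. The backbone gene Med14 was the noisiest large subunit, with 7.72, 8.04 and 7.99 in the fasted polysome arrays and 7.42, 8.37 and 8.20 in the fed polysome arrays, against 7.99, 7.69 and 8.16 in the fasted total and 7.95, 8.05 and 8.20 in the fed total arrays, and its interval of -0.35 to 0.25 is the widest of the 26 for a difference averaged over diets.

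Of the paralogous kinases of the complex, Cdk8 passed and Cdk19 did not. Cdk8 had 11.45, 11.48 and 11.44 in the fasted polysome arrays and 11.38, 11.50 and 11.60 in the fed polysome arrays, against 11.12, 10.94 and 11.07 in the fasted total and 11.04, 11.05 and 11.16 in the fed total arrays, so each polysome array was above all total arrays of its diet. Its difference was 0.41 ± 0.077 in fasted and 0.41 ± 0.077 in fed dams (limma, adjusted p = 2.37e-05 averaged over diets). Cdk19 had 9.74, 9.71 and 9.79 in the fasted polysome arrays and 9.43, 9.57 and 9.44 in the fed polysome arrays, against 9.69, 9.66 and 9.89 in the fasted total and 9.49, 9.46 and 9.48 in the fed total arrays. Its polysome and total arrays overlapped in both diets, and the difference of 0.01 ± 0.054 had a 95% interval of -0.11 to 0.12. The difference between the 2 genes was not itself tested.

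Cyclin C, the product of Ccnc and the partner of both kinases, had 10.15, 9.97 and 10.11 in the fasted polysome arrays and 10.001, 10.36 and 10.37 in the fed polysome arrays, against 9.94, 9.81 and 9.84 in the fasted total and 9.92, 10.13 and 10.07 in the fed total arrays. It was 0.21 ± 0.073 higher in polysome RNA averaged over diets (limma, adjusted p = 0.0247) and passed in neither diet alone. Med12l, the paralog of the kinase activator Med12, had 8.36, 8.38 and 8.41 in the fasted polysome arrays and 8.64, 8.65 and 8.66 in the fed polysome arrays, against 7.97, 7.90 and 8.04 in the fasted total and 8.24, 8.17 and 8.27 in the fed total arrays. It was 0.42 ± 0.046 higher (limma, adjusted p = 4.94e-06). Med13, the large subunit that ties the kinase module to the core, had 11.29, 11.32 and 11.31 in the fasted polysome arrays and 11.30, 11.27 and 11.22 in the fed polysome arrays, against 11.06, 10.98 and 10.99 in the fasted total and 11.02, 10.93 and 11.06 in the fed total arrays, a difference of 0.28 ± 0.046 (limma, adjusted p = 1.85e-04).

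**Figure D3:**
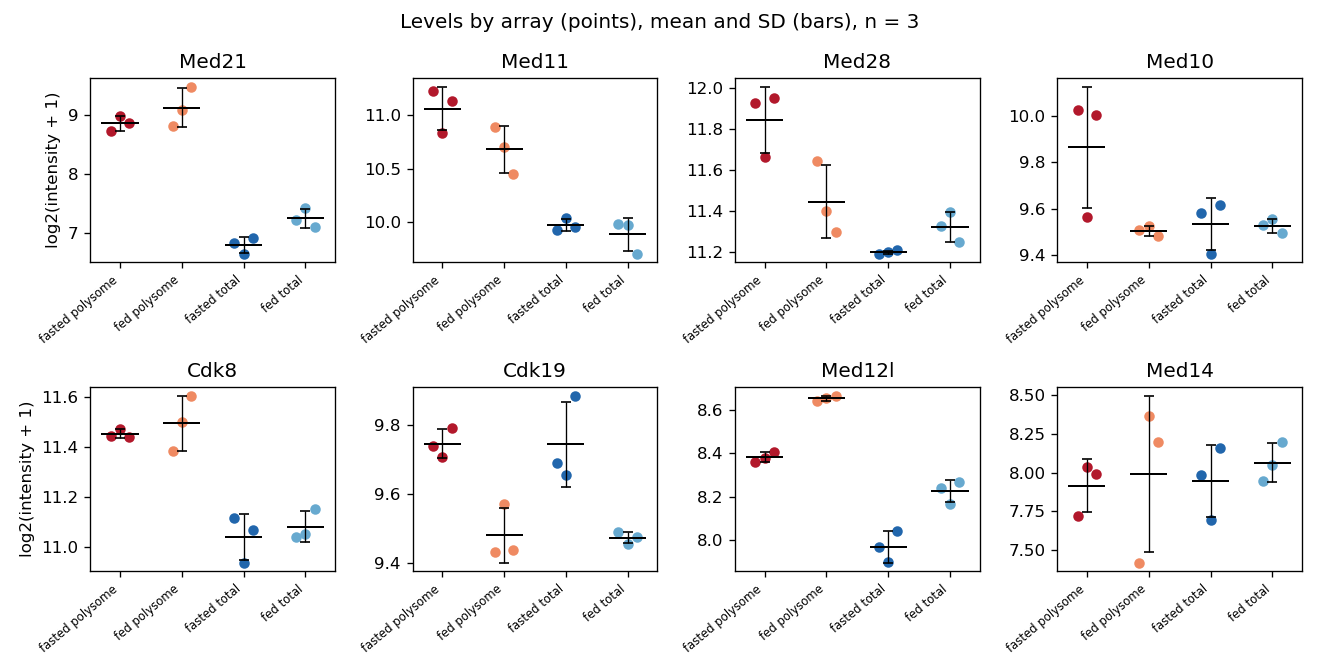
Level (log2 intensity plus 1) of selected Mediator genes in each array, with fasted before fed and polysome before total RNA, each point an array and each bar the group mean with its SD (n = 3). Med21 separates by fraction, Med28 is highest in the 3 fasted polysome arrays, and Cdk19 is higher and Med12l lower in fasted than in fed dams in both fractions.

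Taken by diet, 17 members were higher in polysome RNA and 0 lower in fasted dams (limma, adjusted p under 0.05), where 43.7% of all tested genes differed, 25.5% higher and 18.2% lower. In fed dams 12 were higher and 0 lower, where 43.5% of all tested genes differed, 24.1% higher and 19.4% lower. The polysome arrays were all above the total arrays for 18 members in fasted dams and 13 in fed dams, and all below for 0 in either, where 31.1% and 29.4% of tested genes were all above and 21.5% and 23.5% all below. The lists shared 11 genes, which is 64.7% of the 17 and 91.7% of the 12. Of the 6 that passed in fasted dams alone, all were small subunits, Med4, Med6, Med10, Med19, Med28 and Med30. The overlap and the share passing in fasted dams alone were not counted over all tested genes, so these counts have no background. In fasted dams the calls of Med4, Med10, Med19, Med30 and Med31 were lost without fasted polysome replicate 1 and also without replicate 3, and 12 of the 17 held whichever array was left out. In fed dams the calls of Med24, Med27, Med29 and Med31 were lost without fed polysome replicate 2 and also without fed total replicate 3, and 8 of the 12 held whichever array was left out. Without fed polysome replicate 1, Med24, Med27 and Med29 were lost and Ccnc was gained. Med31 was also lost without fed polysome replicate 3 or fed total replicate 1. The call of Med24 was also lost without fed total replicate 1, fasted polysome replicate 3 or any fasted total array. With quantile normalisation Med24 and Med27 were lost. Passing in one diet and not in the other does not show that the diets differ, and in the test of that difference 0 of the 26 passed.

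Subunits were also sorted by size, with 15 small (a protein at most about as long as that of Med27) and 11 large ones, a grouping taken from general knowledge of the complex. In fasted dams the median polysome minus total difference was 0.44 over small and 0.28 over large subunits, against 0.05 over all tested genes. In fed dams it was 0.21 over small and 0.19 over large subunits, against 0.04. Other tested genes with proteins of like size were not set beside them, so a general effect of size was not tested. The small subunits exceeded the large by 0.15 in fasted and by 0.01 in fed dams. Averaged over both diets, the median was 0.344 over small and 0.175 over large subunits, an excess of 0.170, against 0.047 over all tested genes. In that average 11 of 15 small and 6 of 11 large subunits were higher in polysome RNA (limma, adjusted p under 0.05), where 33.0% of all tested genes were. In single arrays, the small-subunit median minus the large-subunit median was 0.26, -0.04 and 0.21 in fasted polysome RNA, against -0.05, -0.03 and -0.16 in fasted total RNA. The groups overlapped at fasted polysome replicate 2. The spread of this value between replicates of a group, as a pooled SD, was 0.098. None of these excesses of small over large subunits was tested.

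**Figure D4:**
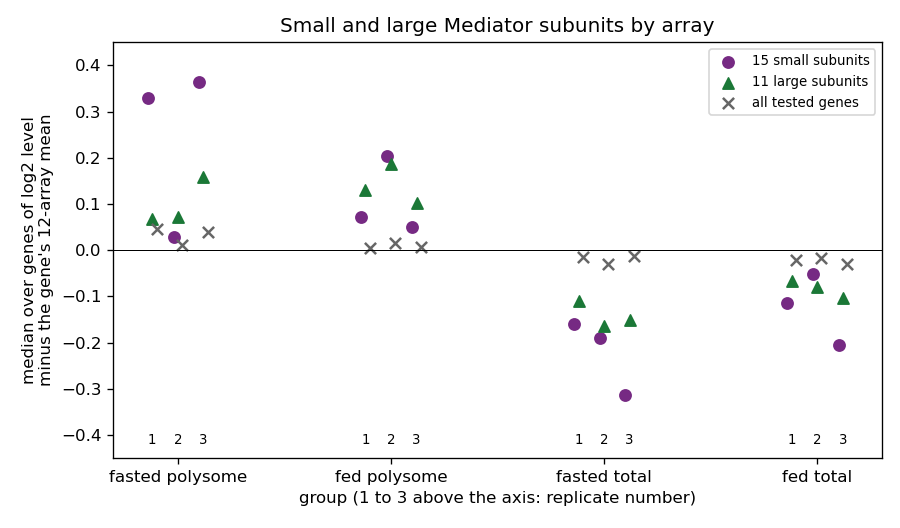
Median level of the small and of the large subunits in each array, as the difference from each gene's mean over all arrays (log2), by group. Fasted polysome replicates 1 and 3 have the highest small-subunit medians, 0.33 and 0.37, while replicate 2 of the same group lies at 0.03, among the fed polysome arrays.

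Array by array, the median small subunit lay 0.33, 0.03 and 0.37 above its own mean in fasted polysome replicates 1, 2 and 3, against 0.07, 0.20 and 0.05 in fed polysome RNA. The median large subunit lay 0.07, 0.07 and 0.16 in fasted polysome RNA, against 0.13, 0.19 and 0.10 in fed polysome RNA. The higher small-subunit level in fasted polysome RNA therefore rested on 2 of the 3 arrays. Without fasted polysome replicate 2, the array least like its group, small subunits exceeded large ones by 0.27 in the polysome minus total difference of fasted dams, and without replicate 1 or replicate 3 the excess was 0.097 or 0.098.

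No Mediator gene passed the test for the dam's fast in either fraction. In total RNA 0 of the 26 genes passed (limma, adjusted p under 0.05), where 1.03% of all tested genes did, 0.737% higher and 0.295% lower. Before adjustment 4 had p under 0.05 (Cdk19, Med12l, Med19 and Med21), where 16.2% of tested genes did. In polysome RNA 0 of the 26 passed, where 2.01% of tested genes did, 1.59% higher and 0.423% lower. There 6 had an unadjusted p under 0.05 (Cdk19, Med6, Med10, Med11, Med12l and Med28), where 20.9% of tested genes did. These shares are near those of all genes. The median fasted minus fed difference was -0.09 in total RNA, with 20 of 26 genes below 0, where it was 0.001 over all tested genes and 5063 of 10174 were below 0. In polysome RNA it was 0.02, as over all tested genes.

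**Figure D5:**
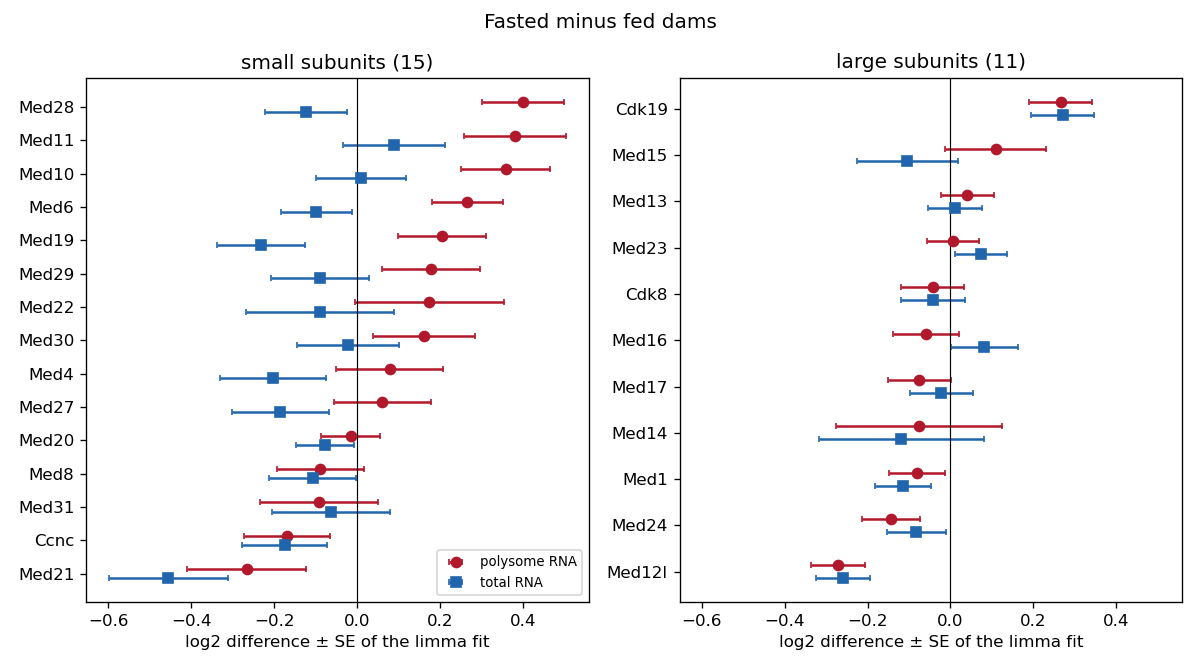
Fasted minus fed dams (log2 difference ± SE of the limma fit, 3 arrays per group) for each Mediator gene in polysome and in total RNA, with small and large subunits in separate panels. Most small subunits lie further right in polysome than in total RNA, Cdk19 lies at 0.27 and Med12l near -0.27 in both fractions, and none passed the adjusted threshold.

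A pair of kinase module genes had close to the same difference in both fractions, though neither passed. Cdk19 measured 9.74, 9.71 and 9.79 in fasted against 9.43, 9.57 and 9.44 in fed polysome RNA, and 9.69, 9.66 and 9.89 in fasted against 9.49, 9.46 and 9.48 in fed total RNA. The fasted arrays were above the fed arrays in each fraction without overlap. The difference was 0.27 ± 0.076 in polysome RNA (limma, adjusted p = 0.0769) and 0.27 ± 0.076 in total RNA (adjusted p = 0.105). Its paralog Cdk8 differed by -0.04 ± 0.077 in polysome and -0.04 ± 0.077 in total RNA.

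Med12l lay on the other side. It measured 8.36, 8.38 and 8.41 in fasted against 8.64, 8.65 and 8.66 in fed polysome RNA, and 7.97, 7.90 and 8.04 in fasted against 8.24, 8.17 and 8.27 in fed total RNA. The fasted arrays were below the fed arrays in each fraction without overlap. The difference was -0.27 ± 0.065 in polysome RNA (limma, adjusted p = 0.0511) and -0.26 ± 0.065 in total RNA (adjusted p = 0.0756), the smallest adjusted p of the members in both.

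Across the members, fasted arrays were all above fed arrays for 1 gene in total RNA (Cdk19) and all below for 5 (Med1, Med12l, Med19, Med21 and Med28), where 12.9% and 11.9% of tested genes did so. In polysome RNA they were all above for 4 (Cdk19, Med6, Med10 and Med28), where 12.4% of tested genes did so, and all below for 2 (Med12l and Med24), where 8.38% did. Med21, whose difference between fractions was the largest, measured -0.46 ± 0.14 in total RNA for fasted minus fed (limma, adjusted p = 0.137) and -0.27 ± 0.14 in polysome RNA (adjusted p = 0.313).

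In polysome RNA the 3 largest positive values were of small subunits, followed by Cdk19 and Med6. The values were 0.40 ± 0.099 for Med28 (limma, adjusted p = 0.0532), 0.38 ± 0.12 for Med11 (adjusted p = 0.109), 0.36 ± 0.11 for Med10 (adjusted p = 0.0912) and, next to the value of Cdk19 above, 0.27 ± 0.086 for Med6 (adjusted p = 0.109). Without fasted polysome replicate 2 the limma fit called 6 members, with 7.42% of tested genes called. Med10 (0.51, adjusted p = 0.00988), Med28 (0.49, adjusted p = 0.0184), Med11 (0.50, adjusted p = 0.034), Med6 (0.34, adjusted p = 0.0403) and Med19 (0.33, adjusted p = 0.0474) were higher and Med12l (-0.27, adjusted p = 0.0465) lower in fasted dams. Without fed polysome replicate 1 it called 3 members, Med11, Med12l and Med28, with 5.07% of tested genes called. Without any 1 of the other 4 polysome arrays it called 0 members, with 0.108% to 0.334% of tested genes called.

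The difference between the fasting effects in polysome and in total RNA passed for 0 of the 26 genes (limma, adjusted p under 0.05), where 0% of tested genes passed. An unadjusted p under 0.05 was found for 4 genes, all small (Med6, Med10, Med19 and Med28), where 5.40% of tested genes had one. The difference was above 0 for 14 of 15 small and 4 of 11 large subunits, the second count being 7 of 11 when arrays were centred on their median. Of all tested genes 53.3% were above 0. Its median was 0.26 over small and -0.01 over large subunits, against 0.01 over all tested genes. Without fed polysome replicate 1 the difference was above 0 for 13 of 15 small subunits, with a median of 0.199. Without fasted polysome replicate 2 it was above 0 for all 15, with a median of 0.324. Without both arrays it was above 0 for 12 of 15, with a median of 0.302. With all 12 arrays, Med28 had the largest value, 0.52 ± 0.14 (limma, adjusted p = 0.856), and Med19 followed with 0.44 ± 0.15 (adjusted p = 0.856).

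Other parts of the transcription machinery were set beside Mediator, again where 33.0% of all tested genes were higher in polysome RNA and 24.2% lower. Among subunits of RNA polymerase II, 5 of 10 tested genes were higher in polysome RNA averaged over diets and 0 lower (limma, adjusted p under 0.05), with a median of 0.40. The largest were Polr2i at 1.34, Polr2g at 0.97, Polr2d at 0.94 and Polr2e at 0.83. Among general transcription factors 17 of 25 were higher and 2 lower, with a median of 0.21. Taf10, a TFIID subunit, was higher by 0.65 and Cdk7, the TFIIH kinase, by 0.58, whereas Gtf2f1, of TFIIF, was lower, at -0.51. Among genes of elongation and pause release 10 of 27 were higher and 3 lower, with a median of 0.09, so the share that was higher was near that of all tested genes. Supt4h1, of the DSIF elongation factor, was higher by 0.55 and Supt16h, of the FACT histone chaperone, was lower, at -0.47. None of the 3 lists had a gene that passed for the fast in total RNA, in polysome RNA or in the difference between them (limma, adjusted p under 0.05). The smallest adjusted p values were 0.0621 for Taf7 in polysome RNA (0.30) and 0.0756 for Polr2h in total RNA (-0.37). Across these lists, in the order given, the difference between fasting effects was above 0 for 8 of 10, 19 of 25 and 20 of 27 genes. The medians were 0.15, 0.11 and 0.05, where 53.3% of all tested genes were above 0 with a median of 0.01. In total RNA, fasted minus fed was below 0 for 9 of 10, 19 of 25 and 16 of 27, against 5063 of 10174 tested genes.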

How the data were processed

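Fetal liver RNA was measured on 12 Affymetrix rat arrays in 4 groups of 3. The authors deposited intensity values from RMA (per the submitters' processing notes, its version not given in the sources used here). These spanned 3.62 to 21344, a linear scale, so log2(value + 1) was used. Of 28826 probes, 15209 carried 1 gene symbol, for 14497 genes, and the brightest probe stood for each gene. Genes below the 40th percentile of mean level (6.07 log2) were left out, which left 10174. Group means were fitted to these genes with limma (version 3.58.1, R 4.3.3; 8 residual degrees of freedom), with p-values two-sided, adjusted by Benjamini-Hochberg over all tested genes, and a threshold of 0.05. The median SE was 0.0945 for a difference between groups and 0.134 for a difference between effects. The number of arrays limits the precision. The fit was run on simulated data with independent genes and arrays and with changes added in fasted total RNA only. That run read the fast in total RNA alone. It does not bear on the polysome comparisons or on arrays that deviate together. The members and gene lists were chosen with earlier results of these data known. The size classes were to come from a protein table; none was used here, and they were assigned from general knowledge. Per-array values are given for members past the threshold, the smallest p values of each comparison, the largest fraction differences, the kinase module paralogs and Med1, Med14, Med15, Med17 and Med23. Same-numbered polysome and total arrays of a diet deviated together (correlation 0.15 to 0.36 in 6 pairs, against -0.22 to -0.02 for other numbers). Deviations were taken from the mean of each group of 3 arrays and sum to 0 within it. The values for other numbers therefore tend below 0 when same-numbered ones are above it, and are no separate baseline. The labels do not say what the numbers mark beyond biological replicates. Promoters and gene names came from RefSeq (GRCr8). The plots used matplotlib 3.10.9 under Python 3.11.15.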

Additional observations from a re-analysis of the deposited data

Results flagged for a closer look

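Med28 had fasting differences of opposite sign in the RNA fractions. The fasted minus fed difference was 0.40 on the log2 scale in polysome RNA, where all 3 fasted arrays were above all 3 fed arrays, and -0.12 in total RNA, where all 3 were below. The test of the difference between these effects gave 0.52 and did not pass (limma, adjusted p = 0.856). Among all tested genes, 0.383% (39 genes) showed such opposite, non-overlapping groups.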

How the results depend on the processing

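The count of Mediator genes called for the fast in polysome RNA was 0 and depended on the processing. It was 1 with quantile normalisation (Med12l, limma adjusted p = 0.0427), 1 with a robust, intensity-trended variance (Med28, adjusted p = 0.0323), between 0 and 6 when single arrays were left out, and 6 without both fed polysome replicate 1 and fasted polysome replicate 2, an alternative chosen after seeing the data. The excess of small over large subunits in the polysome minus total difference of fasted dams was 0.154, between 0.097 and 0.273 when single arrays were left out, and 0.273 without both arrays. The cause was not tested. With single arrays left out, calls for polysome over total RNA ran from 12 to 19 in fasted and from 8 to 13 in fed dams. Averaged over diets 15 of 17 calls held in all 12 of these fits, all but Ccnc and Med4. Diet and replicate number together were also used as a random replicate block, which pairs same-numbered polysome and total arrays within a diet. The labels do not say whether such arrays share a liver. With this block the counts for the fast stayed at 0 in total and in polysome RNA. Those for polysome over total RNA were 18 in fasted and 12 in fed dams. With the number as a fixed term the counts were 0, 0, 17 and 12, with 3.04% of tested genes called for the fast in polysome RNA against 2.01%. That replicate block also ties fed to fasted arrays, whose same-numbered pairs within a fraction correlated at -0.14 to 0.25, so the data do not bear out that pairing. With arrays centred on their median, the difference between fasting effects was above 0 for 7 of 11 large subunits instead of 4. No called result changed direction under the 22 settings that were run. Only 3 arrays per group limit what can be called.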
